A study of Mus musculus with 40 samples.

Results

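The respiratory chain genes described here are the nuclear genes for the subunits of complexes I to V of the mitochondrial inner membrane and for cytochrome c. They were taken by name, as rows of both expression tables whose symbols begin with Ndufa, Ndufb, Ndufc, Ndufs or Ndufv and a number, with Uqcr, with *Cox4* to *Cox8* or with Atp5, together with *Ndufab1*, *Sdha* to *Sdhd*, *Cyc1* and *Cycs*. Symbols marked as pseudogene copies (-ps) were left out, 8 in each table. This gave 89 of the 17038 genes listed in both tables: 41 genes of complex I, 4 of complex II, 9 of complex III, 17 of complex IV, 17 of complex V and 1 for cytochrome c. The values came from RNA-seq of hearts of adult male and female mice that carried a tamoxifen-inducible Cre recombinase driven by the α-myosin heavy chain promoter in cardiomyocytes (α-MHC-MerCreMer). In CM-Il11-Tg mice this Cre switches on a mouse *Il11* transgene held at the Rosa26 locus. The labels give the tissue as heart and the study describes left ventricle, so which parts of the heart a library holds is not settled here.

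The control mice (WT in the labels) carried the same Cre but no transgene, and they had also received tamoxifen. Uninduced mice (T0wk) carried Cre and transgene without tamoxifen, so they differed from the controls in the transgene and in the tamoxifen. The induced CM-Il11-Tg groups were sampled 1, 3 and 6 weeks after tamoxifen (T1wk, T3wk and T6wk). Age rose with weeks after tamoxifen, so the effect of the weeks and that of age cannot be told apart, and the labels do not say how long after tamoxifen the controls were taken. There were 4 libraries in each group and sex, except that 3 male controls and 3 male hearts of week 6 were compared, because the labels of 2 male libraries contradicted each other.

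The nuclear subunits assemble with the subunits that mitochondria make from their own DNA. Complexes I and II pass electrons from NADH and succinate to ubiquinone, complex III passes them to cytochrome c, complex IV passes them to oxygen, and complex V makes ATP from the proton gradient that complexes I, III and IV build up. The heart is among the tissues richest in these complexes, and cardiomyocytes hold most of its mitochondria. Several subunits of complex IV exist as a pair of isoforms, of which 1 is typical of heart and skeletal muscle. The PGC-1 coactivators and their partners, the estrogen-related receptors, NRF1 and GABP, are the best-known activators of this gene family.

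The male libraries held 16663513 to 65333832 reads in listed genes and the female libraries 19147947 to 30929192. *Il11* was at most 0.147 CPM in male and 0.166 CPM in female controls, lay between 15.5 and 49.2 CPM in the uninduced libraries, and was at least 327.9 CPM in every induced library. CPM here are read counts scaled to an effective library size, as deposited. A few libraries stood apart in the respiratory chain genes. In male T1wk replicate 4 and male T6wk replicate 4 the differences from the control mean scattered widely over the 89 genes, with SDs of 0.49 and 0.61 on the log2 scale. Male T1wk replicate 4 also had the lowest share of reads from mitochondrially encoded genes, 7.70%, and the highest share from the 89 genes, 4.90%. In female T0wk replicate 4 the 89 genes summed to 45543 CPM, against 34781 to 35048 in the other uninduced females. Counts and calls that changed when one of these libraries was left out are given with and without it.

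All 89 genes passed the filter on low values and were tested in both sexes. Of these, 86 are protein-coding in GENCODE. *Ndufb4c*, *Ndufs6b* and *Cox6c2* are annotated there as processed pseudogenes, so their reads may be shared with the parent genes and their values are uncertain. *Ndufb4c* followed *Ndufb4* closely, at 131, 116 and 105 CPM in the male controls against 149, 132 and 120 for *Ndufb4*. *Ndufa4* and *Ndufa4l2* are counted under complex I by their names, although *Ndufa4* protein is now assigned to complex IV. Divided by transcript length, the highest control level was that of *Atp5b*, the catalytic β subunit of ATP synthase, at 2052 CPM per kb in males and 2233 in females. The next highest were *Atp5a1* at 1353 CPM per kb in males, just above *Cox4i1* at 1342, and *Cox4i1* at 1806 CPM per kb in females, above *Cox6a2*, the muscle isoform of the subunit Cox6a, at 1617. The lowest were *Cox6b2*, known as a testis isoform, at 1.42 and 1.66 CPM per kb, *Ndufs6b* at 1.74 and 2.02, and *Cox4i2*, an isoform known from lung, at 8.99 and 11.6.

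Summed over the 89 genes, the female libraries of all 3 induced weeks lay below every female control. The controls summed to between 39760 and 43247 CPM with a median of 41314 CPM. The 1-week libraries ranged from 28187 to 31448 CPM (median 28848), the 3-week libraries from 27615 to 33751 CPM (median 30728) and the 6-week libraries from 24519 to 34006 CPM (median 29722). The means were 0.708, 0.742 and 0.712 of the control mean. In males the controls ranged from 31633 to 37660 CPM. The male 1-week libraries ran from 26322 to 40061 CPM and overlapped them, whereas the 3-week libraries (25901 to 28980 CPM) and the 6-week libraries (27545 to 31360 CPM) did not. The male means were 0.956, 0.788 and 0.853 of the control mean.

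**Figure D1:**
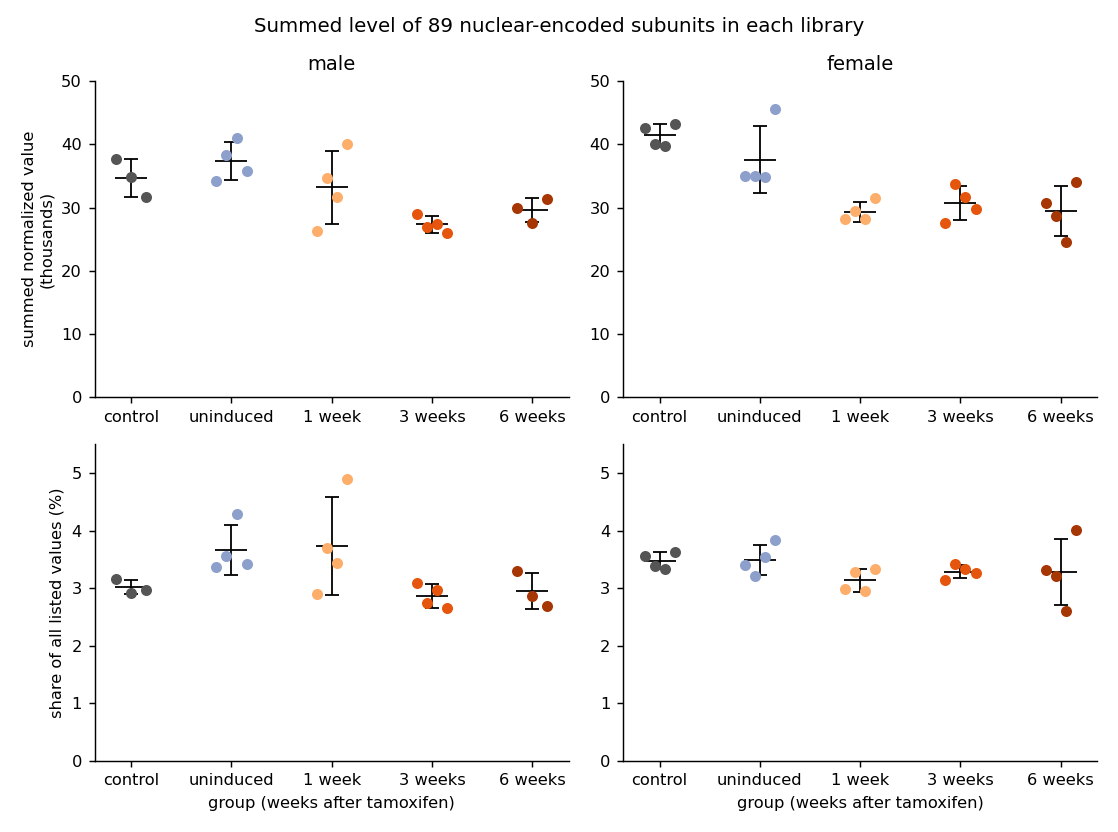
Summed level of the 89 nuclear respiratory chain genes in each library (CPM as deposited, vertical axis from 0) by group, for males and females, with group means. Female libraries at 1, 3 and 6 weeks lie between 24519 and 34006 CPM, below the female controls (39760 to 43247 CPM), whereas the male 1-week libraries (26322 to 40061 CPM) overlap the male controls. Scaled to the listed total instead of the effective library size, every induced week overlaps the controls in both sexes.

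These levels depend on what a library is scaled to. Under the deposited scaling the median change of all genes lay between -0.02 and +0.02 on the log2 scale, while the share of reads from mitochondrially encoded genes fell from a median of 28.3% in male controls to 18.6%, 21.1% and 22.4% at 1, 3 and 6 weeks, and from 29.9% in female controls to 23.3%, 22.2% and 20.3%. As a share of all listed values, the 89 genes took 2.92% to 3.16% in male controls, 2.90% to 4.90% at 1 week, 2.66% to 3.10% at 3 weeks and 2.69% to 3.31% at 6 weeks. In females they took 3.33% to 3.64% in controls, 2.95% to 3.34% at 1 week, 3.14% to 3.43% at 3 weeks and 2.60% to 4.01% at 6 weeks, so each induced range overlapped its controls. When every library was scaled to its listed total, the median change of all genes moved to +0.33, +0.23 and +0.16 in males and to +0.28, +0.30 and +0.33 in females at 1, 3 and 6 weeks (log2). The median change of the 89 genes relative to that of all genes was then -0.01, -0.31 and -0.16 in males and -0.44, -0.37 and -0.42 in females. With the deposited scaling it was -0.05, -0.33 and -0.18 in males and -0.48, -0.41 and -0.47 in females. The respiratory chain genes lay below the median gene under both scalings in each of these 6 comparisons, by 0.01 only in males at 1 week. Rescaling moves all genes of a library together, so this distance is kept nearly by construction and is no test of the scaling. The direction of the absolute change of these genes did depend on the scaling. The median of the 89 genes in males at 1 week was -0.03 with the deposited scaling and +0.32 with total scaling. All changes below are relative to the median gene, as the deposited scaling gives them.

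**Figure D2:**
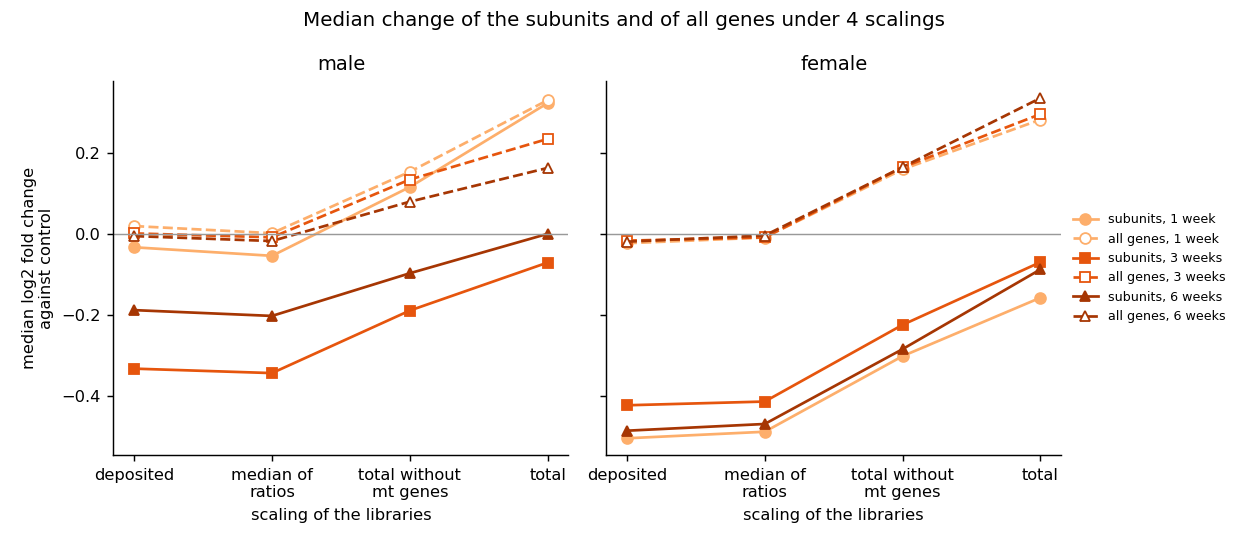
Median log2 change of the 89 respiratory chain genes against control and that of all genes tested, at 1, 3 and 6 weeks, under the deposited scaling, median-of-ratios scaling, scaling to the listed total and to the total without mitochondrially encoded genes. Rescaling moves all genes of a library together, so the distance to all genes stays nearly the same by construction (female 1 week, -0.48 deposited and -0.44 with total scaling). The median itself shifts with the scaling, from -0.51 to -0.16 in females and from -0.03 to +0.32 in males at 1 week.

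The comparison of each week with control asks how the family responded to *Il11* expression in cardiomyocytes, and limma was fitted to log2(CPM + 0.5) across all genes of 1 sex with Benjamini-Hochberg adjustment. In females, 82 of 89 genes were lower at 1 week at an adjusted p under 0.05, 64 at 3 weeks and 77 at 6 weeks, where 13.1%, 14.5% and 21.0% of all genes were lower. No gene was higher at 1 or 3 weeks and 1 was higher at 6 weeks, against 15.3%, 16.8% and 21.7% of all genes. The median log2 change of the 89 genes was -0.51, -0.42 and -0.49, beside -0.02 at each week for all genes. With total scaling the lower counts were 7, 2 and 11 and the higher counts 1, 2 and 3. With the total without mitochondrially encoded genes they were 44, 24 and 45 lower.

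In males, 6, 21 and 15 of the 89 genes were lower at 1, 3 and 6 weeks, where 14.6%, 8.10% and 10.9% of all genes were lower. Higher were 3, 1 and 1, against 18.9%, 13.2% and 16.2% of all genes. The male share lower at 1 week was below that of all genes. The median log2 change was -0.03, -0.33 and -0.19, beside +0.02, 0.00 and -0.01 for all genes. The male counts rested on few libraries. Without control replicate 1, the count lower at 3 weeks was 2 instead of 21, and at 6 weeks 8 instead of 15. Without control replicate 3, it was 2 at 1 week and 8 at 3 weeks, and without T3wk replicate 4 it was 11 at 3 weeks. Leaving out T1wk replicate 4 gave 8 lower at 1 week, of which 5 were among the 6, and leaving out T1wk replicate 1 raised the higher count from 3 to 11. Leaving out T6wk replicate 4 gave 14 lower at 6 weeks, of which 10 were among the 15. Some male calls of single genes were lost in most of the fits that left out 1 library each, namely *Ndufs1* and *Sdha* at 1 week (6 and 4 of 7 fits), *Sdha*, *Atp5k*, *Cox6b2*, *Cox6c2* and *Ndufa4l2* at 3 weeks (5, 6, 5, 4 and 5 of 7) and the rises of *Cox6a1* and *Ndufa2* at 1 week (5 and 4 of 7). With total scaling 0, 0 and 1 were lower and 27, 1 and 3 higher. These 3 comparisons in each sex share their control libraries.

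In females 82, 64 and 77 of the 89 genes were lower at 1, 3 and 6 weeks. Most genes lower in males would therefore be lower in females too, whichever they were. All 6 genes lower in males at 1 week and all 15 at 6 weeks were also lower in females at those weeks, which is 7.32% and 19.5% of the female genes. At 3 weeks 19 genes were shared, 90.5% of the male and 29.7% of the female genes. Those of week 6 included *Cox7a1*, *Ndufs1*, *Atp5k*, *Sdha*, *Ndufv2*, *Ndufa10*, *Uqcrc2*, *Cycs*, *Ndufs5*, *Ndufs4* and *Ndufs6*, of which *Atp5k*, *Ndufs5* and *Ndufs6* did not pass in males without T6wk replicate 4.

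**Figure D3:**
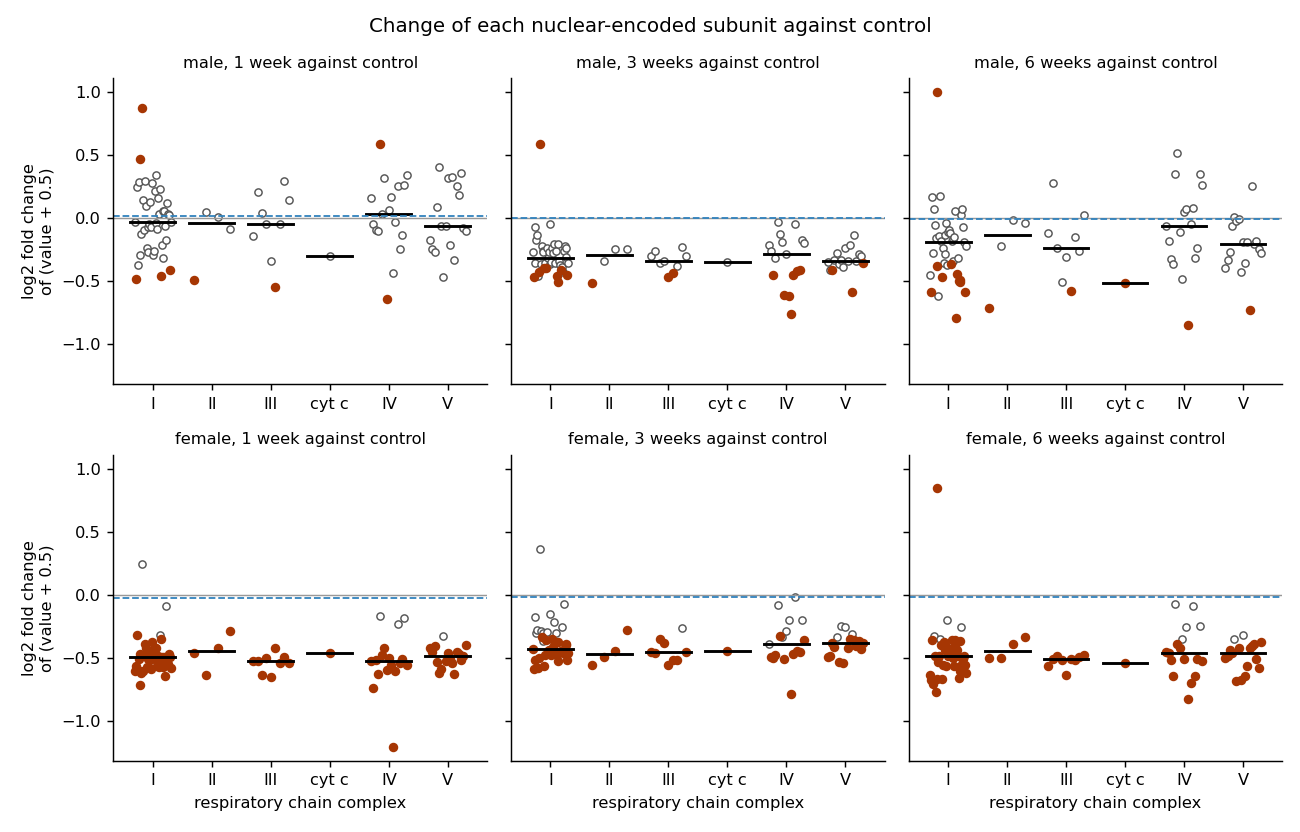
Log2 change against control of each of the 89 genes (points; filled where the adjusted p was under 0.05) by complex, at 1, 3 and 6 weeks in males and females, with black bars at the complex medians and a blue dashed line at the median of all genes. In females the medians of all complexes lie between -0.54 and -0.38 and 82, 64 and 77 of 89 points are filled as lower at 1, 3 and 6 weeks, while in males at 1 week the points sit on both sides of zero. With total scaling the points shift upward together, the male 1-week median to +0.32 and the female 1-week median to -0.16.

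Complex I, the NADH dehydrogenase, was lower in females in its core and in its accessory subunits. In females 38, 28 and 36 of its 41 genes were lower at 1, 3 and 6 weeks (median -0.49, -0.43 and -0.48), and in males 3, 8 and 10 (median -0.03, -0.32 and -0.19). Of all genes 14.6%, 8.10% and 10.9% were lower in males and 13.1%, 14.5% and 21.0% in females. The male share of complex I at 1 week was below that of all genes. *Ndufs1*, the large iron-sulphur subunit, read 502, 583 and 511 CPM in the male controls and 356, 360 and 225 CPM at 6 weeks. The groups did not overlap, and the gene fell by 0.79 ± 0.17 (log2, SE; adjusted p = 0.00200, limma), after 0.45 and 0.50 at 1 and 3 weeks. Leaving out T6wk replicate 4, the lowest, gave a fall by 0.57 (adjusted p = 0.0104). In females it read 490, 451, 517 and 463 CPM in controls and 332, 359, 345 and 449 CPM at 6 weeks, a fall by 0.38 ± 0.13 (adjusted p = 0.0240), which became +0.02 with total scaling and missed the threshold in 5 of the 8 fits that left out 1 library each. *Ndufv1*, which binds NADH, fell by 0.48 ± 0.13 in females at 6 weeks and was at -0.19 ± 0.15 in males (adjusted p = 0.393), where the groups overlapped. Its partner *Ndufv2* fell in both sexes at every week, by 0.41, 0.45 and 0.59 in males and by 0.49, 0.52 and 0.56 in females. The male value at 1 week was -0.33 without T1wk replicate 4 (adjusted p = 0.0566).

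Among the accessory subunits of complex I, *Ndufa3* fell most in females at 1 and 6 weeks. It read 241, 244, 227 and 261 CPM in controls, 143, 142, 138 and 170 CPM at 1 week and 171, 142, 115 and 148 CPM at 6 weeks. No induced library at these weeks reached a control, and the falls were 0.71 ± 0.12 (adjusted p = 0.000106) and 0.77 ± 0.12 (adjusted p = 3.0e-05). At 3 weeks it fell by 0.576, after *Ndufa10* at 0.584. In males *Ndufa3* did not pass the test, with changes of -0.29, -0.46 and -0.16 and overlapping groups. *Ndufa10* fell in every comparison, by 0.48, 0.46 and 0.58 in males and by 0.56, 0.584 and 0.67 in females. *Ndufa12* fell by 0.71 in females at 6 weeks, *Ndufa9* by 0.57 at 3 weeks and *Ndufs6*, which holds a zinc site of the peripheral arm, by 0.65 at 1 week. *Ndufa2* went the other way in males at 1 week, at 117, 143, 118 and 210 CPM against 120, 98.0 and 93.4 CPM in controls. The groups overlapped, the rise was 0.47 ± 0.17 (adjusted p = 0.0436), and the highest value was that of T1wk replicate 4, without which the change was +0.28 (adjusted p = 0.143). In females *Ndufa2* fell by 0.47 at 1 week and by 0.48 at 6 weeks.

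*Ndufa4l2* was the exception to the family. It is a paralog of *Ndufa4* known as a hypoxia-inducible gene that lowers complex I activity, and it lies on chr10:127350818-127353038 (GRCm39, plus strand, 4 exons). The male controls read 16.2, 12.6 and 15.0 CPM. The male induced libraries read 25.4, 29.2, 24.3 and 29.5 CPM at 1 week, 32.3, 22.7, 18.4 and 17.6 CPM at 3 weeks and 26.3, 22.9 and 42.5 CPM at 6 weeks. Every induced male library was above every control, and the rises were 0.88 ± 0.20 (adjusted p = 0.00276), 0.59 ± 0.20 (adjusted p = 0.0452) and 1.00 ± 0.22 (adjusted p = 0.00196). The highest male library was T6wk replicate 4, and the rise at 6 weeks was 0.74 without it (adjusted p = 0.0130). The female controls read 15.3, 18, 17.01 and 19.6 CPM and the 6-week libraries 29.9, 36.4, 33.7 and 27.9 CPM, a rise by 0.85 ± 0.18 (adjusted p = 0.000651) without overlap. The female values at 1 and 3 weeks were +0.24 and +0.37 (adjusted p = 0.323 and 0.122). With total scaling the change was positive in all 6 comparisons, from +0.58 to +1.24. *Ndufa4l2* was also the only member higher than in uninduced hearts, by 0.79 and 0.91 in males at 1 and 6 weeks and by 0.71 in females at 6 weeks.

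In complex II, which is also the succinate dehydrogenase of the citric acid cycle and holds no mitochondrially encoded subunit, all 4 genes were lower in females at each week (median -0.44, -0.47 and -0.45). In males *Sdha*, the flavoprotein that oxidises succinate, was the 1 gene lower at each week. It read 1130, 1356 and 1100 CPM in the male controls, 659, 850, 847 and 1098 CPM at 1 week, 804, 773, 910 and 855 CPM at 3 weeks and 851, 801 and 561 CPM at 6 weeks. The induced libraries lay below every control, with 1098 CPM in T1wk replicate 4 just under 1100 CPM, and the falls were 0.49, 0.51 and 0.71 (adjusted p = 0.0300, 0.0327 and 0.00549). At 6 weeks the fall was 0.53 without replicate 4, the lowest (adjusted p = 0.0292). In females *Sdha* fell by 0.46, 0.55 and 0.50. *Sdhb*, the iron-sulphur subunit, fell by 0.63, 0.50 and 0.50 in females. In males it was at +0.05, -0.34 and -0.22 and did not pass the test.

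In complex III, 9, 8 and 9 of 9 genes were lower in females (median -0.52, -0.46 and -0.51) and 1, 2 and 1 in males. The male share was below that of all genes at 1 week (14.6%) and near it at 6 weeks (10.9%). *Uqcrc1* and *Uqcrc2* are its core scaffold proteins. *Uqcrc1* read 1184, 1148, 1099 and 1159 CPM in the female controls and 690, 757, 693 and 784 CPM at 1 week, a fall by 0.65 ± 0.13 (adjusted p = 0.000544), and it fell by 0.56 and 0.64 at 3 and 6 weeks. In males at 6 weeks it read 747 and 691 CPM in replicates 1 and 3 but 1042 CPM in replicate 4, within the control range of 910 to 1058 CPM, and was at -0.30 (adjusted p = 0.193). It passed without T6wk replicate 4, at -0.48 (adjusted p = 0.0328), and at 1 week without T1wk replicate 4, at -0.43 (adjusted p = 0.0428). *Uqcrc2* fell in males at each week, by 0.55 ± 0.11 at 1 week (adjusted p = 0.000976), 0.43 at 3 weeks and 0.58 at 6 weeks. The catalytic *Uqcrfs1* (the Rieske iron-sulphur protein) and *Cyc1* (cytochrome c1) fell in females by 0.54 and 0.52 at 1 week and by 0.52 and 0.56 at 6 weeks. Neither passed the test in males, where *Cyc1* was at -0.14, -0.30 and -0.11. *Cycs*, the mobile electron carrier between complexes III and IV, fell by 0.46, 0.44 and 0.54 in females and by 0.51 ± 0.14 in males at 6 weeks (adjusted p = 0.00898).

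In complex V, 16, 13 and 15 of 17 genes were lower in females (median -0.48, -0.38 and -0.46) and 0, 3 and 1 in males (median -0.06, -0.34 and -0.20). The male share was below that of all genes at 1 week (14.6%) and 6 weeks (10.9%). The catalytic head subunits *Atp5a1* and *Atp5b* had the highest CPM values of the family. *Atp5b* read 4361, 4136, 4325 and 4381 CPM in the female controls, 2914, 3185, 3137 and 3316 CPM at 1 week and 3119, 2978, 2663 and 3583 CPM at 6 weeks. No induced library of these weeks reached a control, and the falls were 0.46 ± 0.13 (adjusted p = 0.0104) and 0.49 ± 0.13 (adjusted p = 0.00459). In males *Atp5b* read 4038, 4178 and 3639 CPM in controls and 3257, 2952 and 3196 CPM at 6 weeks, without overlap, at -0.33 ± 0.16 (adjusted p = 0.125). *Atp5a1* was at -0.42, -0.49 and -0.50 in females, where it passed the test each time, and at -0.17, -0.35 and -0.39 in males, where it did not. *Atp5g1*, a gene for the c-ring, fell by 0.68 in females at 6 weeks. In males at 6 weeks it read 607 and 574 CPM in replicates 1 and 3 and 1242 CPM in replicate 4, against 695 to 874 CPM in controls. *Atp5k*, the small subunit e of the membrane part, fell in males by 0.585 at 3 weeks and by 0.73 ± 0.21 at 6 weeks (adjusted p = 0.0155), where replicate 4 read 76.8 CPM against 156 and 157 CPM in the others. Without that library the change was -0.39 (adjusted p = 0.0883), and without control replicate 1 the call was lost as well, at -0.60.

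**Figure D4:**
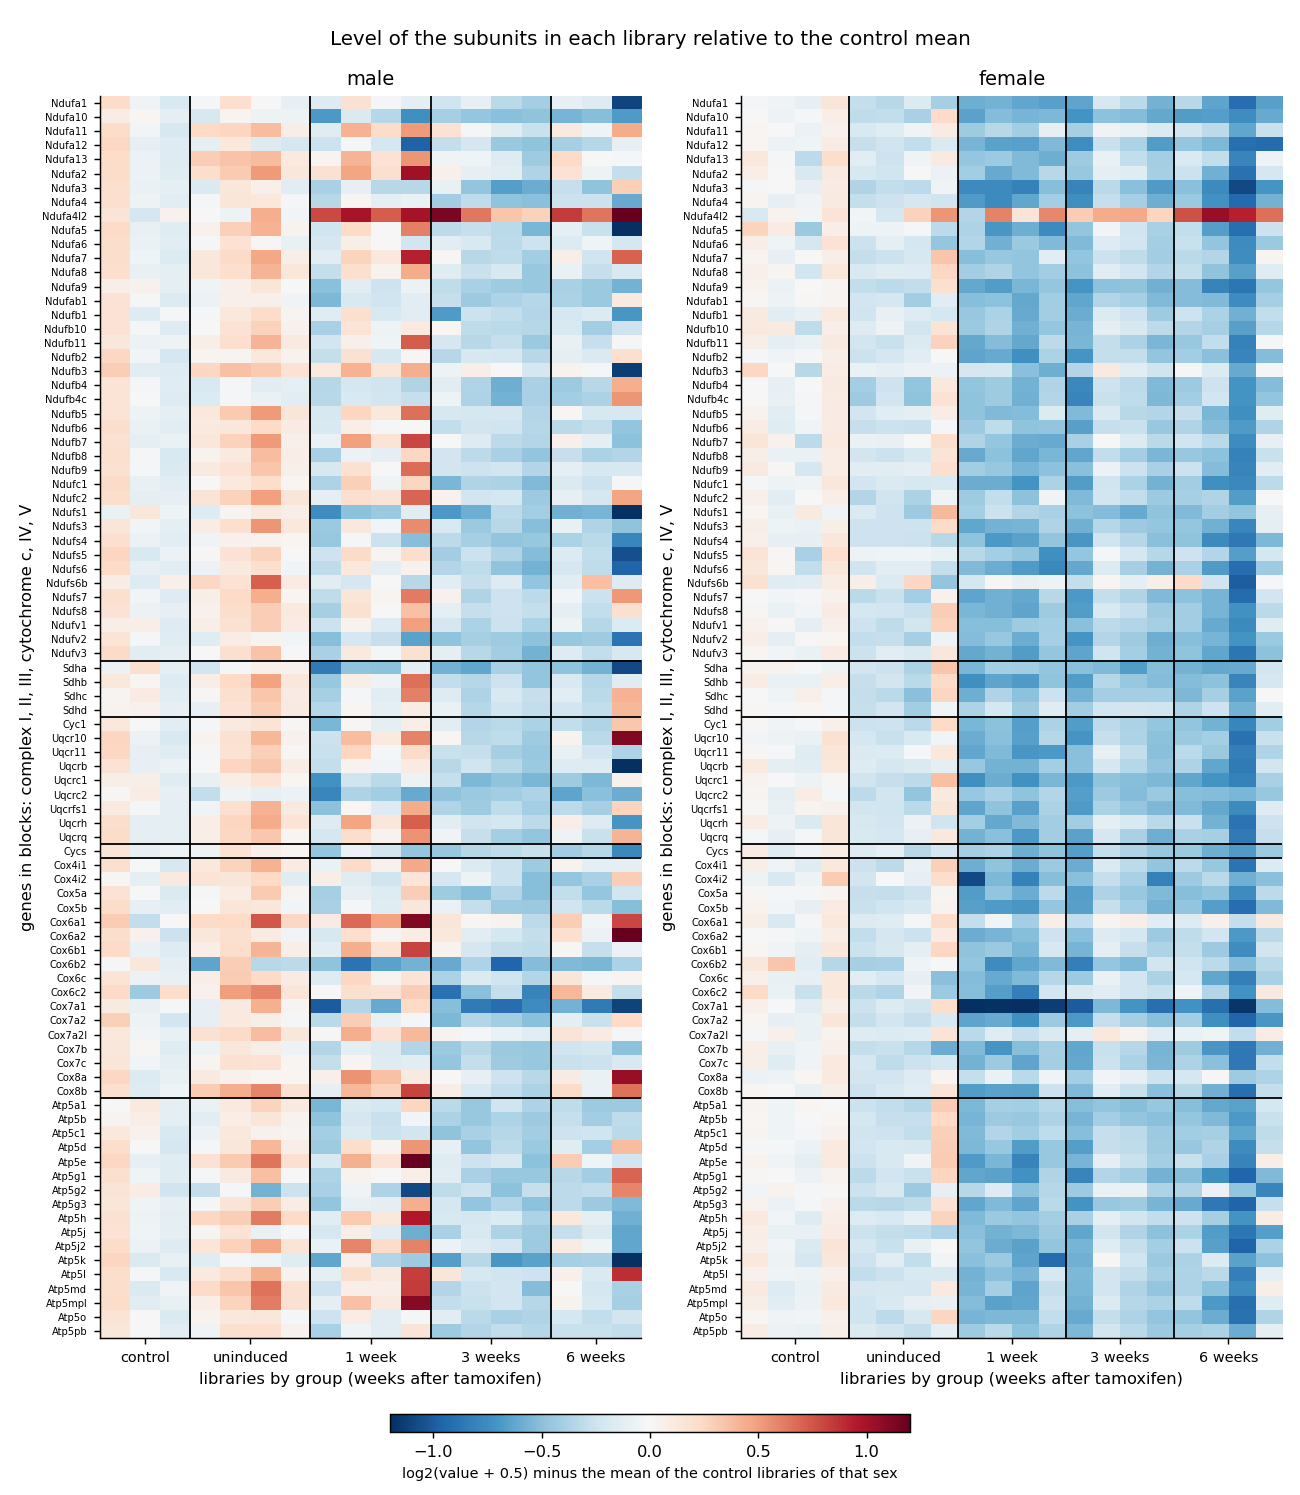
Heat map of the genes (rows, by complex) in each library (columns, by group), as the log2 difference from the mean of the controls of the same sex with the deposited scaling, and colours limited at ±1.2. The induced female libraries are blue in nearly every row, *Ndufa4l2* is red, and male T1wk replicate 4 and T6wk replicate 4 mix strong red and blue (SD over genes 0.49 and 0.61). With total scaling every library shifts as a whole, so that the male 1-week median becomes +0.32.

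Complex IV, cytochrome c oxidase, had 14, 10 and 12 of 17 genes lower in females (median -0.52, -0.39 and -0.46) and 1, 7 and 1 in males (median +0.03, -0.28 and -0.06). The male share was below that of all genes at 1 week (14.6%) and 6 weeks (10.9%). Complex IV held the gene with the deepest fall of the family at 5 of the 6 comparisons, *Cox7a1*. This is the heart and skeletal muscle isoform of the subunit Cox7a (chr7:29883569-29885503, GRCm39, plus strand, 4 exons). The female controls read 477, 454, 420 and 481 CPM. The female induced libraries read 195, 201, 188 and 209 CPM at 1 week, 228, 315, 279 and 244 CPM at 3 weeks and 277, 244, 203 and 319 CPM at 6 weeks, all below every control. The falls were 1.205 ± 0.13 (adjusted p = 4.3e-07), 0.79 ± 0.13 (adjusted p = 7.5e-05) and 0.83 ± 0.13 (adjusted p = 3.2e-05), and with total scaling the gene still passed, at -0.86, -0.44 and -0.43. The male controls read 420, 368 and 386 CPM, the 3-week libraries 273, 217, 208 and 232 CPM and the 6-week libraries 263, 217 and 180 CPM. These did not overlap the controls, and the falls were 0.76 ± 0.21 (adjusted p = 0.0116) and 0.84 ± 0.22 (adjusted p = 0.00757). At 1 week the males spread from 195 to 457 CPM, the highest in replicate 4, and the change was -0.43 (adjusted p = 0.114), or -0.65 without that library (adjusted p = 0.00711). With total scaling the male changes were -0.08, -0.49 and -0.65, and none passed the test.

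Of the other subunits of complex IV, *Cox4i1* and *Cox5a*, which are used in most tissues, fell by 0.52 and 0.51 in females at 1 week and by 0.45 and 0.51 at 6 weeks. *Cox4i1* was at -0.39 at 3 weeks (adjusted p = 0.0503). In males *Cox4i1* was at +0.16, -0.21 and -0.06 and did not pass the test, and *Cox5a* fell by 0.45 at 3 weeks. *Cox6a1*, the isoform of non-muscle tissues, rose in males at 1 week by 0.59 ± 0.22 (adjusted p = 0.0415), at 49.2, 73.7, 64.6 and 99.5 CPM against 56.9, 37.3 and 45.7 CPM, groups that overlapped. The highest was T1wk replicate 4, without which the change was +0.42 (adjusted p = 0.133). In females it was at -0.16, -0.08 and -0.07 and did not pass at any week. *Cox8a*, likewise the general isoform, and *Cox7a2l*, which bridges complexes III and IV in supercomplexes, also did not pass at any week in either sex. *Cox6b2* fell by 0.64 and 0.61 in males at 1 and 3 weeks, but its values were under 1 CPM. *Cox6c2*, the processed pseudogene, fell by 0.62 in males at 3 weeks, with overlapping groups. Among the muscle isoforms, *Cox6a2* fell in females by 0.48, 0.32 and 0.39, the last of which became +0.01 with total scaling, and *Cox8b* by 0.56, 0.36 and 0.53, while neither passed in males. *Cox7a2*, the general partner of *Cox7a1*, fell in females by 0.60, 0.47 and 0.70 and in males at 3 weeks by 0.45. *Cox4i2* fell by 0.73 in females at 1 week, from 7.60 to 10.9 CPM in controls to 3.84 to 5.99 CPM.

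The muscle and general isoforms of a subunit can be set against each other within a library, as the log2 ratio of their values, which does not depend on the scaling. In female controls *Cox7a1* was above *Cox7a2* by 1.00 ± 0.08 (SD, n = 4), and at 1, 3 and 6 weeks by 0.39, 0.67 and 0.87. The libraries of weeks 1 and 3 did not overlap the controls, with p = 0.0286 (exact permutation test, two-sided), the smallest p that 4 against 4 allows, and an adjusted p of 0.114 over the 24 ratio comparisons of both sexes. At 6 weeks they overlapped (exact permutation p = 0.286). *Cox6a2* to *Cox6a1* was lower by 0.31, 0.24 and 0.32 in females at 1, 3 and 6 weeks, again without overlap and with the same p and adjusted p. *Cox8b* to *Cox8a* was lower by 0.37 at 1 week without overlap, and by 0.16 and 0.28 with overlap at 3 and 6 weeks.

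In males *Cox7a1* to *Cox7a2* was lower by 0.40, 0.30 and 0.80 at 1, 3 and 6 weeks, and at 6 weeks the groups did not overlap (exact permutation p = 0.1, the smallest that 3 against 3 allows). The 6-week difference was -0.52 without T6wk replicate 4, whose ratio was 0.0378 against 0.93 and 0.82 in the others, and the 1-week difference was -0.62 without T1wk replicate 4. *Cox6a2* to *Cox6a1* was lower by 0.56 in males at 1 week without overlap (exact permutation p = 0.0571, the smallest that 4 against 3 allows), by 0.41 without T1wk replicate 4, and at -0.10 and +0.16 at 3 and 6 weeks. The male ratio of *Cox8b* to *Cox8a* was at +0.08, -0.02 and -0.09. *Cox4i2* to *Cox4i1* overlapped the controls at each week in both sexes. None of the 24 comparisons passed after adjustment, and the smallest adjusted p was 0.114. With so few libraries and this many comparisons, no adjusted p could have fallen under 0.05, whatever the ratios. The adjusted test therefore could not decide whether the ratios changed.

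**Figure D5:**
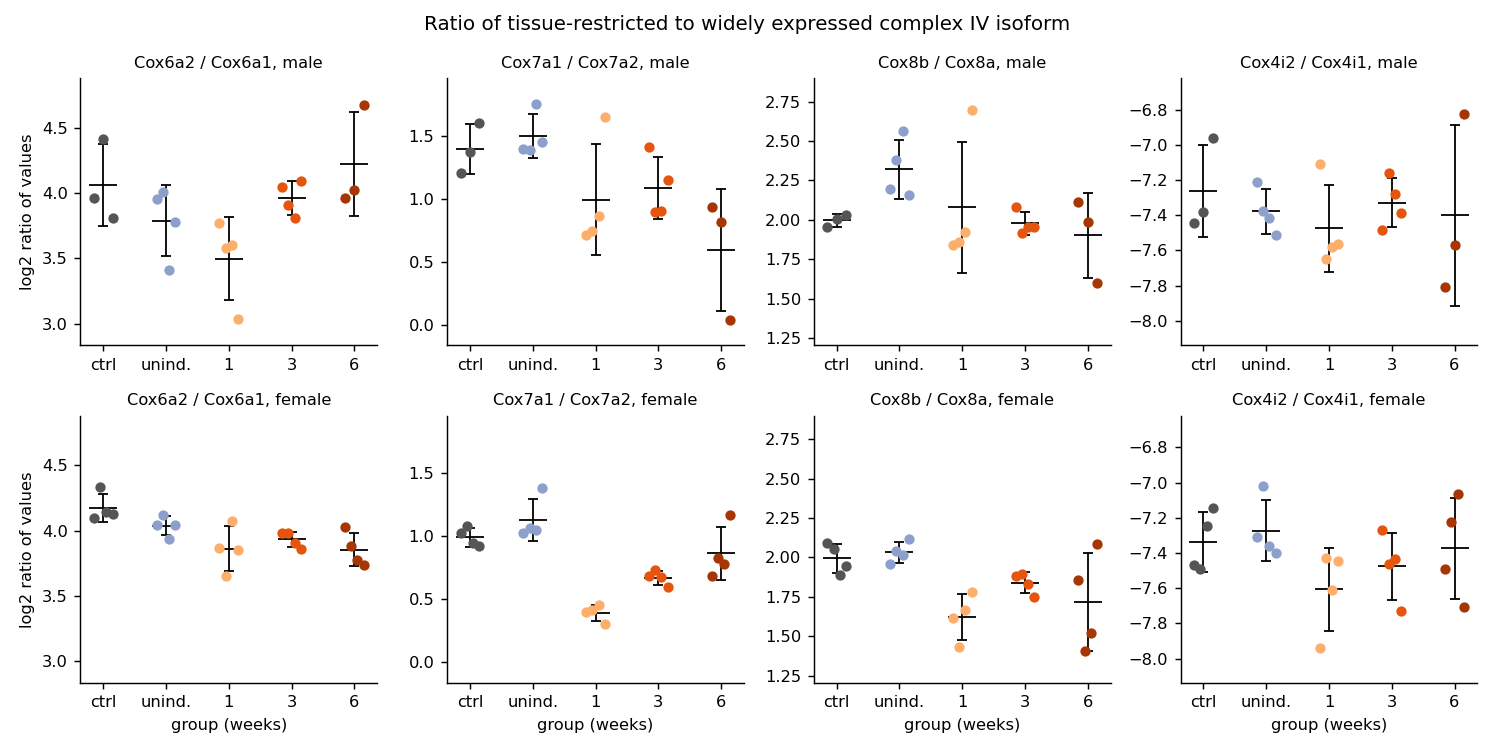
Log2 ratio of the muscle isoform to the general isoform of Cox6a, Cox7a and Cox8, and of *Cox4i2* to *Cox4i1*, in each library (points) with group means (bars), by group and sex. Female *Cox7a1* to *Cox7a2* falls from a mean of 1.00 in controls to 0.39 at 1 week without overlap, and female *Cox6a2* to *Cox6a1* from 4.17 to 3.86. These ratios are taken within a library and do not change with scaling.

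In females at 1 week the ratios of the Cox6a, Cox7a and Cox8 pairs lay below every control, though none passed after adjustment. For this reason the promoter sequences of both isoforms of Cox7a, of both isoforms of Cox8 and of *Cox6a1* are shown. They run from 250 bases before to 50 bases after the transcription start, 5′ to 3′ on the gene's strand, from RefSeq on GRCm38.p6, where 70 of the 89 genes had an entry. Capitals mark matches to the letters of a motif searched on both strands: the palindrome of NRF1 (the first run of capitals in the window of *Cox6a1*), ccggaag for ETS factors such as GABP, tnaaggtca for estrogen-related receptors, aagatgg for YY1, and tataaa for a TATA box. The windows are chr7:30183921-30184220 (plus strand) for *Cox7a1*, chr9:79759804-79760103 (minus strand) for *Cox7a2*, chr7:140900397-140900696 (minus strand) for *Cox8b*, chr19:7217567-7217866 (minus strand) for *Cox8a* and chr5:115348909-115349208 (minus strand) for *Cox6a1*.
Cox7a1: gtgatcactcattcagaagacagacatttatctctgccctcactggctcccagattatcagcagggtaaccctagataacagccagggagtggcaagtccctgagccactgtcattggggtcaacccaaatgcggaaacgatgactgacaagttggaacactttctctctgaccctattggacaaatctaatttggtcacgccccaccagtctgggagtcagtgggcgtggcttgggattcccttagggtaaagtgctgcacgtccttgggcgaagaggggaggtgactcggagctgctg
Cox7a2: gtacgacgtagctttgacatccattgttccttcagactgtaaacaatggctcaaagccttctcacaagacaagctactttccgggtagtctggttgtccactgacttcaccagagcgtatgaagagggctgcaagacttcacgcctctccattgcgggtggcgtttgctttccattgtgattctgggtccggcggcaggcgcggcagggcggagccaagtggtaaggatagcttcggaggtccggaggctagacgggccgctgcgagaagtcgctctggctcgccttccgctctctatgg
Cox8b: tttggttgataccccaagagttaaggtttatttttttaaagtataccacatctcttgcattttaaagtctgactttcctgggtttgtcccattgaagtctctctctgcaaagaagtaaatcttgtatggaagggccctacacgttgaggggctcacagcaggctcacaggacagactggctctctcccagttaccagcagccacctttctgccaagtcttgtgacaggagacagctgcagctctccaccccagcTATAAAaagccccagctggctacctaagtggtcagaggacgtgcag
Cox8a: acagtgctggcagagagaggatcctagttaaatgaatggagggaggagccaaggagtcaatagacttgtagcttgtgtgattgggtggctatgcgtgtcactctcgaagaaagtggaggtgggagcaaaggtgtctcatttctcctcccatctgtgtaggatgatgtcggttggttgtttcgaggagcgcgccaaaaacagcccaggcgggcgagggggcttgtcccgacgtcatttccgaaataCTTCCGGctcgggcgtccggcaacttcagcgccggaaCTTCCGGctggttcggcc
Cox6a1: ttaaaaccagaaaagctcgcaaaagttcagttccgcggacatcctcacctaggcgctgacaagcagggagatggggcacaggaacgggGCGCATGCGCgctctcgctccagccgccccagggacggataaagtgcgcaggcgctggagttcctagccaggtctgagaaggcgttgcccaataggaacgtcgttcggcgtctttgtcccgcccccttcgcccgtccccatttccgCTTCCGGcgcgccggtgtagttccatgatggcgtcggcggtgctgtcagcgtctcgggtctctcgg
The window of *Cox8b* held the TATA letters starting at base 255 of the window, which lies after the annotated transcription start. That of *Cox8a* held the ETS letters on the minus strand at bases 246 and 283, and that of *Cox6a1* held the NRF1 letters at base 89 and the ETS letters on the minus strand at base 235. No match to these letters was in the windows of *Cox7a1* and *Cox7a2*. Over the family, the NRF1 letters were in the promoters of 5 of 70 genes (*Ndufa11*, *Uqcrc1*, *Cox6a1*, *Atp5g2* and *Atp5k*), 7.14% against 1.07% of 27025 genes in the table. The ETS letters were in 17 genes, 24.3% against 9.93%, and those of YY1 in 11 genes, 15.7% against 7.28%. The receptor letters were in 3 genes (*Ndufb4*, *Sdhd* and *Atp5g3*), 4.29% against 1.43%, and the TATA letters in 7, 10% against 15.7%. These are matches of letters, and no binding was measured.

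Uninduced CM-Il11-Tg hearts were also compared with control. They differed from the controls in the transgene, with its low *Il11* level, and in the tamoxifen, which activates the Cre and which only the controls had received. The effects of these differences cannot be told apart here. None of the 89 genes passed the test in either sex, by limma or by edgeR, where 0.597% of all genes in males and 2.87% in females did. DESeq2 called none in males and 1 lower in females, where 116 of 16956 genes were lower. At an unadjusted p under 0.05 there were 2 in males and 14 in females. The count of all genes at that threshold is not given here, so these counts have no share beside them. The median change was +0.12 in males and -0.14 in females. Without female T0wk replicate 4, 3 genes were lower in females.

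Against the uninduced hearts, 8, 49 and 32 genes were lower in males at 1, 3 and 6 weeks, where 6.66%, 5.46% and 7.40% of all genes were (median -0.16, -0.45 and -0.34). In females 39, 14 and 46 were lower, against 4.26%, 6.15% and 9.08% of all genes (median -0.35, -0.25 and -0.34). Each of these counts turned on several single libraries. In males at 1 week it was 1 without T0wk replicate 2 or T1wk replicate 1, 2 without T0wk replicate 3 or 4, 3 without T1wk replicate 3 and 13 without T1wk replicate 4. At 3 weeks the male count was 18 without T0wk replicate 3, 23 without T0wk replicate 2 or T3wk replicate 4, 28 without T3wk replicate 2 and 32 without T3wk replicate 3. At 6 weeks it was 14 without T0wk replicate 3, 17 without T0wk replicate 2 and 18 without T6wk replicate 4.

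In females at 1 week it was 12 without T1wk replicate 3, 16 without T0wk replicate 4, 20 without T1wk replicate 1 or 2 and 25 without T0wk replicate 2. At 3 weeks the female count was 2 without T0wk replicate 4, 3 without T3wk replicate 1, 5 without T3wk replicate 3 or 4, 8 without T0wk replicate 2 and 23 without T0wk replicate 3. At 6 weeks it was 16 without T6wk replicate 3, 24 without T6wk replicate 2 and 26 without T0wk replicate 4. With total scaling 0, 4 and 10 were lower in males and 4, 1 and 2 in females.

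Between the weeks, no member passed the test by limma or edgeR. Of all genes 0.0177%, 0.165% and 0% did so in males for weeks 3 against 1, 6 against 1 and 6 against 3, and 0.218%, 1.03% and 0% in females. At an unadjusted p under 0.05 there were 45, 20 and 8 members in males, and 7, 2 and 4 in females. The count of all genes at this unadjusted threshold is not given here, so these member counts have no share to be read against. DESeq2 called 10 members lower in males at 3 weeks than at 1 week, beside 197 of 16931 genes. The median change from 1 to 3 weeks was -0.30 in males.

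The difference between the sexes was tested directly, as the female change minus the male change against control in a joint fit of 16627 genes. No member passed at any week, and 0%, 0% and 0% of all genes did. At an unadjusted p under 0.05 62, 0 and 19 of the 89 members differed at 1, 3 and 6 weeks, beside 2908, 691 and 2886 of the 16627 genes. The share of members at 6 weeks was near that of all genes. The median difference was -0.52, -0.09 and -0.29 on the log2 scale, beside -0.03, -0.02 and -0.02 for all genes. *Ndufa2* was at -0.94 ± 0.22 at 1 week (adjusted p = 0.0590), with a female change of -0.47 and a male change of +0.47. *Cox7a1* was at -0.77 ± 0.25 at 1 week (adjusted p = 0.0990) and at -0.03 and +0.02 at 3 and 6 weeks. Among the male 1-week libraries, replicate 4 had the highest value of both genes, 210 CPM for *Ndufa2* and 457 CPM for *Cox7a1*. Without that library the median difference at 1 week was -0.44, and no member passed. The count at 1 week turned on single libraries. It was 35 without male T1wk replicate 1 and 18 without male control replicate 1, beside 553 and 410 of the 16627 genes. It was also 8 without female control replicate 3 and 1 without male T1wk replicate 3, beside 382 and 68 genes. With separate fits of the sexes it was 23, beside 627 genes. At 6 weeks it was 4 without male T6wk replicate 3, 2 without female T6wk replicate 1 and 1 with separate fits. Of all genes 187, 403 and 314 passed in these settings.

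The 13 mitochondrially encoded subunits of the same complexes were all lower in females at each week (median -0.74, -0.78 and -1.07). In males 12, 1 and 0 were lower (median -1.39, -0.63 and -0.50). In uninduced hearts none passed against control, but the medians were -0.68 in males and -0.38 in females. The male uninduced median lay below the male induced medians of -0.63 and -0.50. The part of induction in these shifts was not tested. *mt-Co1*, the catalytic subunit of complex IV, fell by 0.68, 0.78 and 0.91 in females and by 1.18 in males at 1 week. *mt-Cytb* of complex III fell by 0.75, 0.77 and 1.13 in females and by 1.5 in males at 1 week, where T1wk replicate 4 had the lowest mitochondrial share and the fall was 0.895 without it. Without that library 12 were still lower in males at 1 week, with a median of -0.86. With total scaling 9, 0 and 0 were lower in males and 5, 7 and 13 in females, none was higher, and the medians were below zero. *mt-Co2* fell by 0.86, 0.71 and 1.08 in females and was at -0.66 in males at 1 week (adjusted p = 0.0531).

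The genes of the citric acid cycle, which feeds complexes I and II, were lower in both sexes: 15 of 18 in males at each week (median -0.47, -0.49 and -0.61), and 14, 18 and 18 in females (median -0.46, -0.54 and -0.55). With total scaling 1, 0 and 9 were lower in males and 6, 4 and 4 in females, none was higher, and the medians stayed below zero. *Cs* (citrate synthase) fell by 0.73, 0.55 and 0.56 in males and by 0.44, 0.62 and 0.62 in females. *Ogdh*, of the oxoglutarate dehydrogenase complex, fell in males at 1 week by 0.53, and in females at 3 and 6 weeks by 0.55 and 0.48. Of 23 tested carriers and other inner membrane genes, 6, 9 and 11 were lower in males and 16, 18 and 19 in females, and 1 was higher in males at 6 weeks, *Ucp2*. Among them *Ckmt2*, the mitochondrial creatine kinase, fell by 0.66 and 0.57 in males at 3 and 6 weeks and by 0.69, 0.68 and 0.73 in females. *Slc25a4*, the ADP/ATP carrier, fell by 0.55, 0.45 and 0.59 in females and by 0.50 in males at 6 weeks (-0.37 without T6wk replicate 4, adjusted p = 0.138), and *Slc25a3*, the phosphate carrier, by 0.36, 0.46 and 0.48 in females. The counts of lower carriers were, with total scaling, 1, 0 and 2 in males and 5, 5 and 3 in females, and the male 1-week median turned to +0.17.

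Of 16 tested factors of complex I, 3, 2 and 7 were lower in males (4 at 6 weeks without T6wk replicate 4) and 8, 7 and 8 in females, where 14.6%, 8.10% and 10.9% of all genes were lower in males and 13.1%, 14.5% and 21.0% in females. *Ndufaf8* was higher in males at 1 week, by 0.63, which is 6.25% of the list beside 18.9% of all genes. *Foxred1* fell in every comparison, by 0.38, 0.56 and 0.59 in males and by 0.57, 0.56 and 0.77 in females. *Ndufaf4* also fell in each, by 0.41 to 0.51 in males and 0.32 to 0.49 in females, and *Ecsit* fell in females by 0.45, 0.36 and 0.45. Of 32 tested factors of complexes II to V, 7, 4 and 9 were lower in males and 14, 9 and 12 in females. Higher in males were 4 at 1 week (*Cox17*, *Cox19*, *Pet100* and *Uqcc3*, by 0.37 to 0.72), of which *Cox17* and *Cox19* did not pass without T1wk replicate 4, and 1 at 6 weeks (*Cox16*), which did not pass without T6wk replicate 4. These shares, 12.5% and 3.12%, were below the 18.9% and 16.2% of all genes that were higher. *Uqcc1* of complex III fell by 0.44, 0.32 and 0.32 in females and by 0.48 in males at 6 weeks, *Atpaf1* of complex V by 0.41 in males at 6 weeks (-0.27 without T6wk replicate 4, adjusted p = 0.106), and *Coa5* of complex IV passed at no week. Of 15 genes of mitochondrial quality and dynamics, 5, 3 and 6 were lower in males and 9, 8 and 8 in females. *Fis1* (fission) was higher in males at 1 week, by 0.52, which is 6.67% of the list and also below the share of all genes. *Mfn2* (fusion) fell by 0.55, 0.36 and 0.41 in males, and *Pink1* (mitophagy) by 0.65, 0.59 and 0.52 in females. *Hspa9*, a matrix chaperone, fell by 0.42 and 0.72 in males at 1 and 6 weeks, the latter by 0.47 without T6wk replicate 4. The medians of the assembly factor and quality lists turned positive with total scaling in each female comparison and in males at 1 week.

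Of 14 PGC-1 coactivators and partners, 7, 4 and 5 were lower in males at 1, 3 and 6 weeks (median -0.43, -0.26 and -0.28) and 3, 7 and 3 in females (median -0.23, -0.32 and -0.26). The male shares were 50%, 28.6% and 35.7%, beside 14.6%, 8.10% and 10.9% of all genes. The female shares were 21.4%, 50% and 21.4%, beside 13.1%, 14.5% and 21.0%, so at 6 weeks the female share was that of all genes. *Perm1*, a muscle regulator downstream of PGC-1, fell in every comparison, by 1.10 ± 0.16 (adjusted p = 4.4e-05), 0.71 and 0.69 in males and by 0.75, 0.79 and 0.92 in females. *Esrrb* also fell in each, by 0.68, 0.68 and 0.59 and by 0.78, 0.90 and 0.78. *Esrrg*, the main estrogen-related receptor of heart beside *Esrra*, fell by 0.70, 0.47 and 0.64 in males and by 0.55 in females at 3 weeks. *Ppargc1a* (PGC-1α) fell by 1.04 in males at 1 week and by 1.33 in females at 3 weeks, and *Ppargc1b* (PGC-1β) by 0.73, 0.64 and 0.82 in males. *Ppara*, the receptor for fatty acid oxidation genes, fell by 1.62 and 1.09 in males at 1 and 6 weeks and by 1.00 in females at 3 weeks. *Rxra*, its partner, fell by 0.52 in males at 1 week, *Ppard* by 0.28, 0.39 and 0.34 in females, and *Gabpb1* by 0.35 in females at 3 weeks. *Pprc1*, the PGC-1-related coactivator, rose by 0.53 and 0.61 in males at 3 and 6 weeks. Without T6wk replicate 4 neither *Ppara* (adjusted p = 0.0501) nor *Pprc1* (+0.39, adjusted p = 0.118) passed at 6 weeks. *Esrra*, *Nrf1*, *Gabpa* and *Yy1* passed at no week in either sex, with changes between -0.29 and +0.16, except that *Esrra* passed in males at 1 week without T1wk replicate 4, at -0.37 (adjusted p = 0.0151). With total scaling 3, 1 and 3 of the 14 were lower and 2, 2 and 1 higher in males, and 0, 1 and 0 were lower and 3, 3 and 5 higher in females, whose medians were then above zero at each week.

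Of 11 genes that transcribe and copy mitochondrial DNA, 1, 1 and 2 were lower in males, which is 9.09%, 9.09% and 18.2% beside 14.6%, 8.10% and 10.9% of all genes, and 3, 3 and 4 in females, 27.3%, 27.3% and 36.4% beside 13.1%, 14.5% and 21.0%. The male share was below that of all genes at 1 week and close to it at 3 weeks. *Twnk*, the helicase, fell by 0.49, 0.48 and 0.45 in males. *Polrmt*, the RNA polymerase, fell by 0.37, 0.35 and 0.48 in females, *Mterf3* by 0.37, 0.43 and 0.54 and *Polg*, the DNA polymerase, by 0.32, 0.30 and 0.34. *Tfam*, which packages the genome, fell by 0.45 in males at 6 weeks, where neither *Tfam* (-0.20, adjusted p = 0.180) nor *Twnk* (-0.45, adjusted p = 0.0633) passed without T6wk replicate 4, but *Polrmt* did, and *Tfb2m* by 0.25 in females at 6 weeks. *Tfb1m*, *Tefm*, *Ssbp1*, *Polg2* and *Mterf1a* passed at no week. With total scaling none of the 11 was lower in either sex.

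Cell type markers moved in the same libraries. Of all genes, 14.6%, 8.10% and 10.9% were lower in males at 1, 3 and 6 weeks, and 18.9%, 13.2% and 16.2% were higher. In females 13.1%, 14.5% and 21.0% of all genes were lower, and 15.3%, 16.8% and 21.7% were higher. In bulk tissue, fewer cells of a type and less RNA per cell cannot be told apart. Of 16 cardiomyocyte markers 4, 3 and 4 were lower in males and 6, 6 and 9 in females (median -0.11, -0.28 and -0.29, and -0.38, -0.32 and -0.43). Their summed level went from 75220 to 89694 CPM in male controls to 52505 to 65091 CPM at 6 weeks, and from 58368 to 81928 CPM in female controls to 49804 to 62374 CPM. *Myh6*, *Actc1* and *Tpm1*, the highest of them, passed at no week, except *Myh6* in males at 1 week without T1wk replicate 4 (-0.74, adjusted p = 0.0490). *Tnnc1* was higher in males at 1 week, by 0.60, and did not pass without that library. With total scaling 1, 1 and 2 cardiomyocyte markers were lower in males and 1, 1 and 2 in females, and the medians ran from -0.10 to +0.25. Of 10 fibroblast markers 9, 8 and 8 were higher in males and 8 at each week in females, and *Gsn* was lower. Their sum went from 1579 to 2072 CPM in male controls to 5470 to 7415 CPM at 6 weeks, and from 2081 to 2461 to 7492 to 12910 CPM in females, and with total scaling 8 or 9 were higher in each comparison. *Col3a1* rose by 3.72 and 4.08 at 6 weeks. Of 10 macrophage markers 9 were higher in each comparison, with sums from 131 to 219 CPM in male controls to 501 to 732 CPM at 6 weeks and from 134 to 168 to 638 to 738 CPM in females. In uninduced hearts 7 macrophage markers were already higher than in control in females and 0 in males (medians +0.89 and +0.46). Of the fibroblast markers 1 was higher there in each sex (medians +0.35 in females and +0.57 in males). No marker of these lists was lower there. Of all genes 2.87% in females and 0.597% in males passed in either direction. Of 10 endothelial markers 5, 3 and 4 were lower in males and 7, 7 and 6 in females, and with total scaling 1, 0 and 1 and 2, 4 and 2.

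Of 8 markers of smooth muscle and pericytes 1, 1 and 2 were lower in males and 2 at each week in females. These shares are 12.5%, 12.5% and 25% in males and 25% in females. The male share was below that of all genes at 1 week (14.6%) and near it at 3 weeks (8.10%). The female share was near it at 6 weeks (21.0%). Of 8 neutrophil markers 4 were tested, of which 2 at each week were higher in males and 3, 2 and 2 in females, with 1 lower in males at 3 weeks. Of the T and B cell markers 3, 2 and 4 of 8 tested were higher in males and 2, 5 and 6 of 11 in females. The female share at 1 week, 18.2%, was near that of all genes (15.3%). All 6 erythroid markers were higher in females at 1 week, where their sum was 3132 to 8347 CPM against 1396 to 2325 CPM in controls, and none passed at other weeks or in males. Male T6wk replicate 4 had the highest erythroid sum, 15961 CPM, against at most 7900 CPM in the male controls. Of 6 atrial markers 3 in males and 4 in females were tested. Of these, 1 was higher in males at 1 and 3 weeks, while in females 1 was higher at 1 and 6 weeks and 1 was lower at each week. Of 7 brown fat markers 2 were tested, of which 1 was higher in females at 1 week. The part of these changes in the levels of the respiratory chain genes was not tested.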

How the data were processed

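Poly(A)-selected, stranded paired-end libraries of heart RNA were aligned by the authors with STAR and counted per gene with featureCounts on GRCm39. The authors deposited 1 table per sex with normalised values, named CPM. These deposited signal values are reads divided by an effective library size. All values were whole multiples of what 1 read is worth (within 0.001), so whole reads were recovered for the count tests. Of 40 libraries, 38 entered tests and 2 males with contradictory labels did not.

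Genes with at least 0.5 CPM in at least 3 libraries were kept (16931 male, 16956 female). The main test was limma (3.58.1, R 4.3.3, with trend) on log2(CPM + 0.5), with all groups of a sex in 1 fit. A gene was called at a Benjamini-Hochberg adjusted p under 0.05 over all genes. Fold changes on this scale understate the change of low genes. The p-values measure the spread between these libraries, and the sexes are compared as changes only, since their tables were normalised separately. Isoform ratios were tested by exact permutation. Alternatives were edgeR (4.0.16), DESeq2 (1.42.0), other pseudocounts, filters, scalings and fits, and each library left out; the fits were tested on simulated data.

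Named genes were the core subunits, the complex IV isoform pairs, the 5 largest falls and rises among called members, members called against the majority, all regulators and the 3 highest members of other lists. *Atp5if1*, in that rule, was not analysed here, and some genes it covers are not reported here by name, though they enter the counts, medians and sums. Members and lists were chosen with earlier results of these data known.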

Additional observations from a re-analysis of the deposited data

Results flagged for a closer look

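In groups of 4 libraries, a value was picked out where its gap to the nearest other library divided by the group's range passed Dixon's critical value. This held for 16 of 208 groups, where chance gives about 1 in 20. Female T0wk replicate 4 accounts for most of them. Its summed level was 45543 CPM over all members (the others 34781 to 35048), 11351 CPM over complex I, 5371 CPM over complex III and 17984 CPM over complex V. In the same library *Ndufv1* read 769 CPM, *Sdhb* 733 CPM, *Uqcrc1* 1472 CPM, *Cyc1* 831 CPM, *Cox5a* 499.6 CPM, *Atp5a1* 4371 CPM and *Atp5b* 5075 CPM, each above the other uninduced females.

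In uninduced males, 1 library read 77.5 CPM for *Cox6a1* (the others 54.1 to 54.8) and 19.8 CPM for *Ndufa4l2* (13.9 to 14.5). Complex II summed to 2525 CPM in 1 female control (2415 to 2432 in the others). *Sdha* read 936 CPM in 1 female of week 6 (715 to 739), and *Cox8b* 323 CPM in 1 female of week 1 (243 to 247).

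The male library titled as 6 weeks but described as control entered no comparison. Its sums were 38082 CPM over all members, 2633 CPM over complex II, 4456 CPM over complex III and 14964 CPM over complex V, each above the highest male control (37660, 2522, 4432 and 14263 CPM).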

How the results depend on the processing

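Of 318 counts of members under other settings 249 stayed within 1.5 times the main count, and of 622 calls of named members 513 stayed, 107 missed the threshold and 2 changed sign, both in females at 6 weeks with total scaling (*Cox6a2* +0.0117 and *Ndufs1* +0.02). Values follow weeks 1, 3 and 6. With total scaling the lower counts against control were 0, 0 and 1 in males and 7, 2 and 11 in females, the higher counts 27, 1 and 3 and 1, 2 and 3, and the lower counts against uninduced 0, 4 and 10 and 4, 1 and 2. Without mitochondrially encoded genes in the total the lower counts were 3, 1 and 9 and 44, 24 and 45 against control, with 9 higher in males at 1 week and 1 higher in females at 3 weeks, and 1, 24 and 20 and 13, 3 and 14 against uninduced. With a minimum log2 change of 1, 1 member was lower in females at 1 week against control, 1 against uninduced, and 0 in each other comparison and direction. Both scalings move all genes by construction; the cause of the other changes was not tested. DESeq2 gave 11 and 32 lower in males at 1 and 3 weeks, 2 higher at 6 weeks, 10 called between weeks 3 and 1, 14 lower against uninduced at 1 week, and in females 1 called in the uninduced and 27 lower against uninduced at 3 weeks. Fitting only the 2 groups gave 42 and 7 lower in males at 3 and 6 weeks, 1 higher at 1 week, and 78 and 21 lower against uninduced. In females it gave 1 higher at 3 weeks and 21, 1 and 8 lower against uninduced. A pseudocount of 2 gave 0 higher in males at 3 weeks. With separate fits 23 and 1 members differed between the sexes at 1 and 6 weeks, beside 627 and 314 of 16627 genes. Same-numbered libraries did not deviate together (mean correlation 0.0132 over 33 male and 0.0255 over 40 female pairs). A replicate block gave 8, 21 and 17 lower in males and 84, 69 and 80 in females against control. In males it left 1 and 0 higher at 1 and 3 weeks and 21 lower than uninduced at 6 weeks. Leaving out 1 library at a time, the lower counts against control ran from 2 to 8, 2 to 20 and 8 to 21 in males and from 74 to 81, 47 to 69 and 65 to 81 in females, and the higher counts from 1 to 11, 0 to 1 and 1 to 3, and from 0 to 1, 0 to 0 and 1 to 1. Against uninduced the lower counts ran from 1 to 13, 18 to 44 and 14 to 30 in males and from 12 to 38, 2 to 23 and 16 to 60 in females. Called in uninduced females were 0 to 3, between weeks 6 and 1 in females 0 to 1, and for the sex difference 0 to 35 at 1 week and 0 to 4 at 6 weeks. Of the isoform ratios, 8 changed sign when 1 library was left out: in males *Cox6a2* to *Cox6a1* (-0.22 to 0.077 at 3 weeks, -0.068 to 0.33 at 6 weeks), *Cox8b* to *Cox8a* (-0.12 to 0.16, -0.055 to 0.0012 and -0.20 to 0.056) and *Cox4i2* to *Cox4i1* (-0.16 to 0.084 at 3 weeks, -0.43 to 0.068 at 6 weeks), and in females *Cox4i2* to *Cox4i1* at 6 weeks (-0.14 to 0.076).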

Other observations

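Both male libraries with contradictory labels are given as values only. The library titled as 6 weeks but described as control had 445 CPM of *Cox7a1*, 15.4 CPM of *Ndufa4l2*, 1322 CPM of *Sdha* and 4348 CPM of *Atp5b*. The library titled as control but described as T6wk had 186 CPM of *Cox7a1*, 25.2 CPM of *Ndufa4l2*, 701 CPM of *Sdha* and 2901 CPM of *Atp5b*, with 27758 CPM summed over all members.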
